A study of Caenorhabditis briggsae with 9 samples.

Results

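The Ras/MAPK cascade and its nuclear effectors are described here through 10 genes of Caenorhabditis briggsae, taken by their identifiers from a table of 22922 genes. They are Cbr-ptp-2 (CBG02539), Cbr-soc-2 (CBG19995), Cbr-cnk-1 (CBG24619), Cbr-sur-6 (CBG03807), Cbr-ksr-2 (CBG15834), Cbr-mek-2 (CBG04190), Cbr-mpk-1 (CBG21247), Cbr-lin-31 (CBG18439), Cbr-eor-1 (CBG11647) and Cbr-sur-2 (CBG19759). All 10 passed the filter on low counts, which kept 12507 genes. The symbols of these 10 identifiers in the gene table matched the names under which they were chosen.

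The data are RNA counts of whole L3 larvae, from 9 libraries of 3 strains. The mutant strains carried allele gu163 of Cbr-spr-4, also named Cbr-ivp-1, or allele gu167 of Cbr-htz-1, also named Cbr-ivp-2, and were compared with the wild-type isolate AF16. Per the labels, worms were grown at 20 degrees on standard plates, bleached and synchronized, and staged by microscopy so that RNA was taken before the Pn.p cells, the vulval precursors, began to divide. The series' design text names this as the time of greatest sensitivity to the inductive signal Cbr-lin-3. No other allele or treatment is named in the labels. The labels do not say what kind of lesion each allele is, so the level of the mutated gene does not check them.

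In vulval development of C. elegans, the EGF-like ligand LIN-3 binds the receptor LET-23 on vulval precursor cells and activates the small GTPase Ras (LET-60). Ras passes the signal through the kinases Raf (LIN-45), MEK (MEK-2) and ERK (MPK-1), which scaffolds and phosphatases help to assemble. Active MPK-1 enters the nucleus, where transcription factors and Mediator subunits carry the signal to vulval fate genes. The same kinases act in other tissues, among them the germline, so the RNA of a whole larva sums over many cells outside the vulva. In such bulk RNA, fewer cells of a type and less RNA per cell cannot be told apart.

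None of the 10 genes passed the edgeR quasi-likelihood test between strains at an adjusted p under 0.05, and every log2 fold change had an interval that included 0. The count was 0 of 10 in gu163 against AF16, where 9.3% of all genes tested were called, 0 of 10 in gu167 against AF16, where 2.09% were called, and 0 of 10 in gu167 against gu163, where 13.5% were called. At an unadjusted p under 0.05 the count was also 0 of 10 in each comparison, against 23.6%, 15% and 28.4% of all genes tested. DESeq2 and limma-voom called 0 of the 10 in each comparison as well. These counts describe transcripts and say nothing of the phosphorylation through which the cascade signals.

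Levels are given as CPM, counts scaled to the TMM-adjusted library total, and are compared within a gene only, because no transcript lengths were used. The libraries held 8294524 to 14095189 counts. A level of 3 counts lay between 0.189 and 0.391 CPM. AF16 replicate 3 had the lowest TMM factor (0.746) and gu167 replicate 3 the highest (1.20). Cbr-spr-4 itself averaged 236 ± 24.6 CPM in gu163, 151 ± 6.08 CPM in gu167 and 109 ± 17.9 CPM in AF16, and Cbr-htz-1 averaged 55.6 ± 7.33, 60.4 ± 2.71 and 66.4 ± 10.6 CPM in the same order of strains (SD, n = 3). Most markers of germline, intestine, body muscle, neuron and hypodermis had counts in every library, with at most 2 germline and 2 intestine markers at 0 in any library. As a further list, the summed level of 10 sperm markers was 25.1 to 86.7 CPM in gu163, 11.9 to 16.0 CPM in gu167 and 2.52 to 3.53 CPM in AF16. Only 4 of them passed the filter, and they were unlike between the mutants. Cbr-spe-27 averaged 37.4 ± 33.0 CPM in gu163 and 0.855 CPM in gu167, and Cbr-spe-41 6.15 and 0.462 CPM. Cbr-spe-6 stood at 7.36 and 7.12 CPM, and Cbr-fer-1 was lower in gu163, at 0.646 and 3.33 CPM. The gu163 sum thus follows Cbr-spe-27 and does not stand for the whole list.

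**Figure D1:**
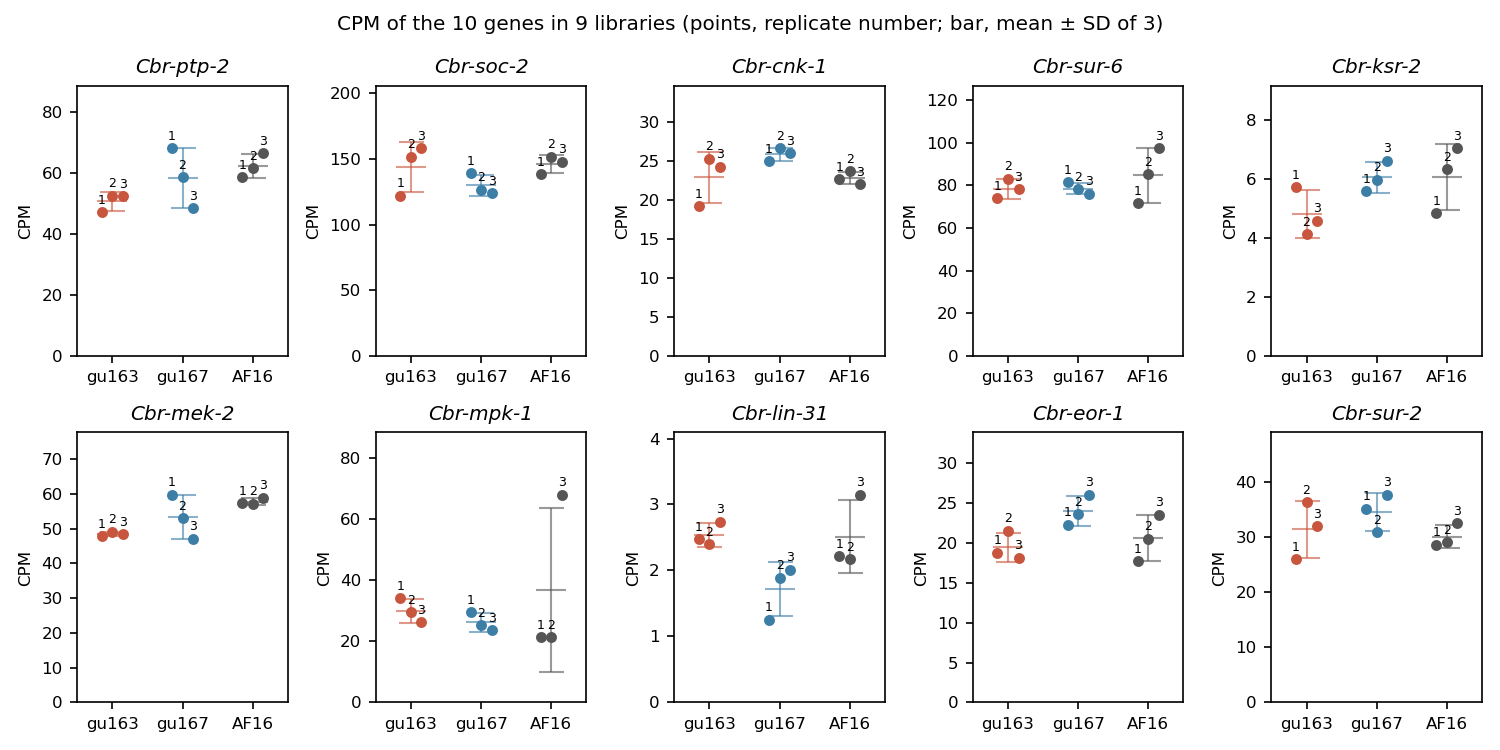
CPM of each of the 10 genes (y axis, from 0) in gu163, gu167 and AF16 (x axis). Points are single libraries with their replicate number, and bars give the mean ± SD of 3 libraries. The gu167 libraries of Cbr-lin-31 lie at 1.25 to 2.01 CPM, below the other strains, and in the panel of Cbr-mpk-1 AF16 replicate 3 stands at 67.8 CPM, above the other 8 libraries at 21.3 to 34.0 CPM.

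Cbr-ptp-2 encodes a tyrosine phosphatase of the SHP type, which in C. elegans acts positively between receptor and cascade. It was measured at 47.1, 52.5 and 52.3 CPM in gu163, 68.0, 58.5 and 48.3 CPM in gu167, and 58.5, 61.6 and 66.3 CPM in AF16. All gu163 libraries lay below all AF16 libraries, while gu167 spanned both. The log2 fold change of gu163 against AF16 was -0.29 ± 0.15 (SE, n = 3 per strain, edgeR adjusted p = 0.258), with a 95% interval of -0.62 to 0.03. In gu167 against AF16 it was -0.09 ± 0.15 (edgeR adjusted p = 0.787).

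Cbr-soc-2 encodes a leucine-rich repeat protein that helps Ras to engage Raf. Its level was 122, 152 and 158 CPM in gu163, 139, 127 and 124 CPM in gu167, and 138, 152 and 148 CPM in AF16. The strains overlapped, and the widest gap within a strain was that between gu163 replicate 1 and the other gu163 libraries. In gu163 against AF16 the log2 fold change was -0.02 ± 0.14 (interval -0.34 to 0.30), and it was -0.17 ± 0.14 in gu167 against AF16 (interval -0.49 to 0.15). The corresponding edgeR adjusted p-values were 0.952 and 0.576.

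Cbr-cnk-1, the gene of a scaffold that connects to KSR and promotes Raf activity, was measured at 19.1, 25.3 and 24.2 CPM in gu163, 24.96, 26.6 and 25.9 CPM in gu167, and 22.7, 23.6 and 22.03 CPM in AF16. Each gu167 library lay above each AF16 library, with a small log2 difference of 0.18 ± 0.15 that did not pass (interval -0.14 to 0.50, edgeR adjusted p = 0.563). The gu163 libraries overlapped with those of AF16, with a log2 fold change of 0.01 ± 0.15 (edgeR adjusted p = 0.977).

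Cbr-sur-6 encodes a regulatory B subunit of the phosphatase PP2A, which in C. elegans acts positively with Raf. It stood at 73.8, 83.0 and 78.2 CPM in gu163, 81.3, 78.0 and 76.0 CPM in gu167, and 71.6, 85.2 and 97.3 CPM in AF16. Both mutants lay within the AF16 range. In each mutant the log2 fold change against AF16 was -0.11 ± 0.14, with edgeR adjusted p-values of 0.678 for gu163 and 0.724 for gu167. Without AF16 replicate 3 the value of gu163 was 0.0087.

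Cbr-ksr-2 encodes a kinase suppressor of Ras, a scaffold that holds Raf, MEK and ERK together; in C. elegans it is required in the germline and overlaps with ksr-1 in the vulva. Its level was low, at 5.73, 4.14 and 4.59 CPM in gu163, 5.59, 5.98 and 6.63 CPM in gu167, and 4.84, 6.34 and 7.05 CPM in AF16, from 44 to 95 counts per library. The strains overlapped in every comparison. Its log2 fold change was -0.34 ± 0.23 in gu163 against AF16 (interval -0.85 to 0.17, edgeR adjusted p = 0.411), and 0.34 ± 0.23 in gu167 against gu163 (interval -0.17 to 0.85, edgeR adjusted p = 0.371). The gu167 and AF16 means were 6.07 ± 0.525 and 6.08 ± 1.13 CPM (SD, n = 3). Of 19 measured germline markers, 13 were higher in gu163 and 11 in gu167 than in AF16 by the edgeR test and 0 were lower, where 6.36% and 1.97% of all genes tested were called higher and 2.94% and 0.128% lower, and the part of germline tissue in the level of Cbr-ksr-2 was not tested.

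Cbr-mek-2, the gene of the MAP kinase kinase, was measured at 47.8, 49.1 and 48.4 CPM in gu163, 59.8, 53.1 and 47.1 CPM in gu167, and 57.3, 57.2 and 58.9 CPM in AF16. The gu163 and AF16 libraries formed separate, narrow groups, with means of 48.4 ± 0.669 and 57.8 ± 0.963 CPM (SD, n = 3), and gu167 replicates covered the whole range of both. The log2 fold change of gu163 against AF16 was -0.25 ± 0.13, with an interval of -0.53 to 0.02, and did not pass (edgeR adjusted p = 0.252). An exact two-sided permutation test gave p = 0.1, the smallest value that 3 libraries against 3 allow. This value follows from the lack of overlap, and Cbr-ptp-2 had the same. In gu167 the log2 fold change against AF16 was -0.12 ± 0.12 (edgeR adjusted p = 0.673).

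Cbr-mpk-1, the gene of the ERK-type MAP kinase at the end of the cascade, gave 34.0, 29.5 and 26.3 CPM in gu163, 29.5, 25.3 and 23.6 CPM in gu167, and 21.4, 21.3 and 67.8 CPM in AF16. AF16 replicate 3 held 539 counts, more than any other library, and its level was 3.18 times the mean of the other AF16 libraries. The remaining AF16 libraries lay below all mutant libraries. With all libraries the log2 fold change was -0.29 ± 0.39 in gu163 (interval -1.16 to 0.57, edgeR adjusted p = 0.697), and it was -0.49 ± 0.39 in gu167 (interval -1.35 to 0.38, edgeR adjusted p = 0.562). Without AF16 replicate 3 both values turned positive, 0.49 ± 0.16 in gu163 and 0.29 ± 0.16 in gu167, with edgeR adjusted p-values of 0.0989 and 0.486. Neither direction passed the test, and the direction for Cbr-mpk-1 rested on this library.

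**Figure D2:**
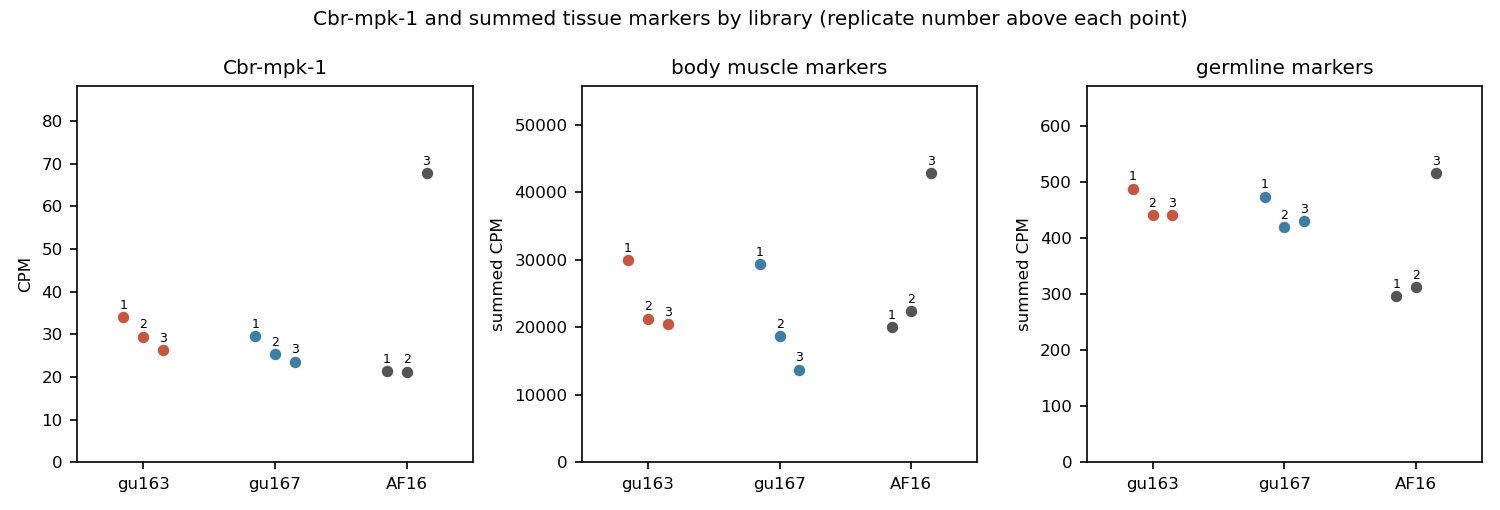
Level of Cbr-mpk-1 (CPM) and summed levels of 12 body muscle markers and 20 germline markers (CPM) in gu163, gu167 and AF16, with 1 point per library and its replicate number. AF16 replicate 3 is the highest point of each panel, at 67.8, 42854 and 516 CPM.

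Markers of several other tissues were also high in AF16 replicate 3. All 12 body muscle markers were higher there than in both other AF16 libraries. Their sum was 20507 to 29906 CPM in gu163, 13728 to 29324 CPM in gu167, and 19999.6, 22391 and 42854 CPM in AF16 replicates 1, 2 and 3. In each mutant replicate 1 had the highest muscle sum and the highest germline sum, and also the highest level of Cbr-mpk-1. Among the mutants, replicate 1 had the highest intestine sum in gu167 only, and the highest neuron and hypodermis sums in gu163 only. From AF16 replicate 1 to 2 the muscle sum rose, while Cbr-mpk-1 stood at 21.4 and 21.3 CPM. The intestine sum was 7293 to 9537 CPM in gu163, 6436 to 10314 CPM in gu167, and 6970.0, 8922 and 12221 CPM in AF16, with 7 of 11 measured markers higher in AF16 replicate 3 than in both other AF16 libraries. The neuron sum was 676 to 936 CPM in gu163, 659.7 to 769.6 CPM in gu167, and 761, 822 and 1153 CPM in AF16, with 6 of 11 markers higher there. The sums of muscle, intestine and neuron markers were thus highest of all 9 libraries in AF16 replicate 3. The sum of the 20 germline markers was 441 to 488 CPM in gu163, 419 to 474 CPM in gu167, and 296, 312 and 516 CPM in AF16. Of the 19 measured germline markers, 5 were higher and 7 were lower in AF16 replicate 3 than in both other AF16 libraries, and Cbr-cgh-1, the gene of a germline RNA helicase, gave 235 of its summed 516 CPM. Of 12 hypodermis markers, 6 were higher and 4 were lower there than in both other AF16 libraries. The log2 ratio of AF16 replicate 3 to the mean of the other AF16 libraries was taken per marker. Its median was 0.89 for the muscle list, 0.63 for intestine, 0.32 for hypodermis, 0.11 for neuron and -0.03 for germline. Of the 10 cascade genes, 8 were higher in AF16 replicate 3 than in both other AF16 libraries, as were 38.4% of all genes tested, and 4 had their highest level of all 9 libraries there, as did 22.2% of all genes tested. The part of RNA of these tissues in the level of Cbr-mpk-1 was not tested.

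Cbr-lin-31 encodes a forkhead transcription factor which in C. elegans is a direct target of MPK-1 and acts in vulval cell fates. It was the least counted of the 10 genes, with 15 to 34 counts per library. Its level was 2.47, 2.40 and 2.74 CPM in gu163, 1.25, 1.89 and 2.01 CPM in gu167, and 2.22, 2.17 and 3.15 CPM in AF16. All gu167 libraries lay below all libraries of the other strains. In gu167 against AF16 the log2 fold change was -0.54 ± 0.30 (interval -1.20 to 0.13, edgeR adjusted p = 0.414), and it was -0.56 ± 0.29 in gu167 against gu163 (interval -1.22 to 0.09, edgeR adjusted p = 0.244), so neither passed. In gu163 against AF16 it was 0.03 ± 0.29 (interval -0.62 to 0.68).

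Most of the 12 hypodermis markers had lower values in gu167 too, by unlike amounts. The summed level of the 12 markers was 1436 to 2983 CPM in gu167, 6188 to 19353 CPM in gu163 and 4502 to 8179 CPM in AF16. All gu167 libraries lay below those of the other strains. In gu167 against gu163, 10 of the 12 had lower values and 5 were called lower by edgeR, with a median log2 fold change of -1.08. Over all genes tested, 47.7% had lower values and 8.33% were called lower in this comparison. Against AF16, 11 of 12 had lower values in gu167 with a median of -0.86, 0 were called by edgeR and 6 had an unadjusted p under 0.05. The shares over all genes tested were 52.0% with lower values, 2.09% called and 15% with an unadjusted p under 0.05. Cbr-dpy-5, Cbr-dpy-13, Cbr-rol-6 and Cbr-sqt-3, the markers with the highest levels in AF16, had log2 fold changes of -1.69 to -1.54 against AF16. Those of Cbr-elt-1, Cbr-elt-3 and Cbr-nhr-25 were -0.03, 0.01 and -0.06, and against gu163 they were 0.36, 0.58 and -0.24. The sum thus follows a few markers and does not stand for the whole list. Lower values in gu167 were not particular to hypodermis. Against AF16, 12 of 12 body muscle markers had lower values (median -0.36), 8 of 11 neuron (-0.20), 7 of 11 intestine (-0.14) and 5 of 19 germline (1.74). Against gu163 these counts were 9 of 12, 5 of 11, 5 of 11 and 10 of 19. The part of hypodermal RNA in the level of Cbr-lin-31 was not tested.

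Cbr-eor-1 encodes a BTB zinc-finger protein that in C. elegans acts positively downstream of the MAP kinase. It was measured at 18.7, 21.5 and 18.1 CPM in gu163, 22.3, 23.6 and 26.02 CPM in gu167, and 17.7, 20.5 and 23.5 CPM in AF16. Each gu167 library lay above each gu163 library, and both mutants overlapped with AF16. Between the mutants the log2 fold change was 0.30 ± 0.16 in gu167 against gu163 (interval -0.05 to 0.65, edgeR adjusted p = 0.249), and it was 0.22 ± 0.16 in gu167 against AF16 (edgeR adjusted p = 0.514).

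Cbr-sur-2, the gene of a Mediator subunit through which MAP kinase signals reach RNA polymerase, gave 26.04, 36.3 and 32.0 CPM in gu163, 35.1, 30.9 and 37.7 CPM in gu167, and 28.6, 29.1 and 32.5 CPM in AF16. The strains overlapped in all comparisons. Against AF16, the log2 fold change was 0.07 ± 0.16 in gu163 (interval -0.28 to 0.42) and 0.20 ± 0.16 in gu167 (interval -0.15 to 0.55), with edgeR adjusted p-values of 0.836 and 0.549.

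**Figure D3:**
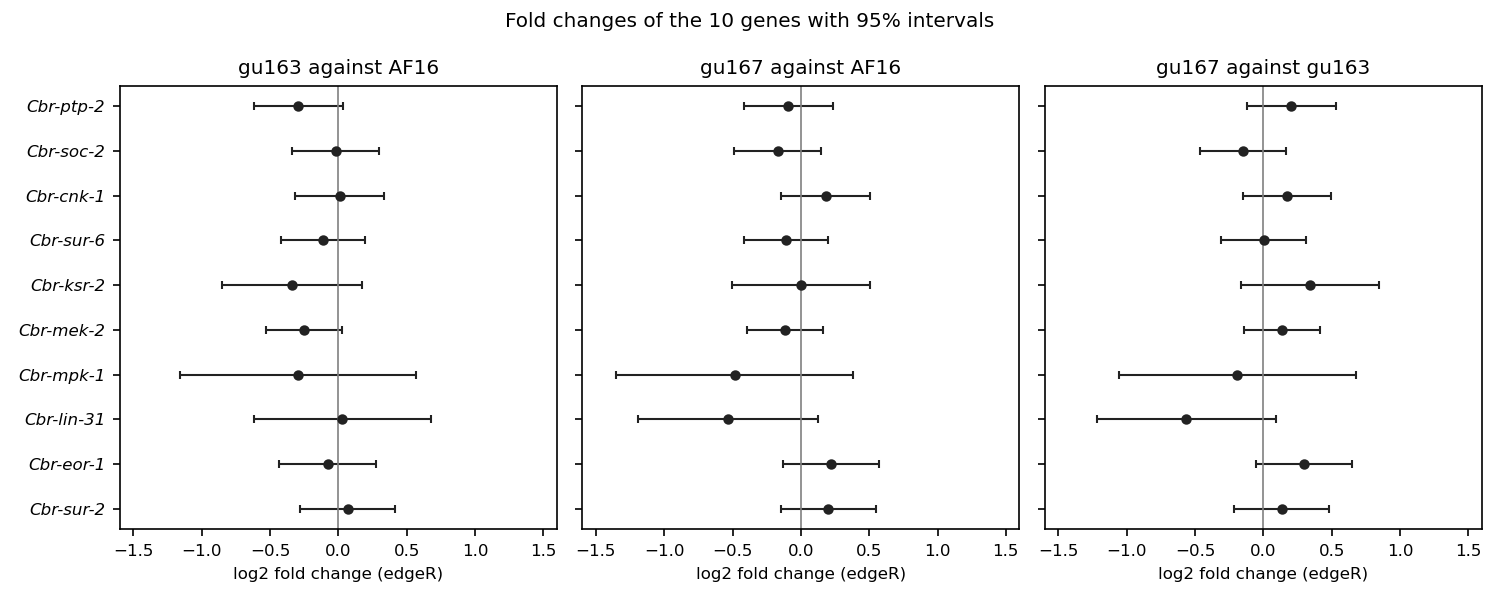
Log2 fold changes of the 10 genes (x axis) in gu163 against AF16, gu167 against AF16 and gu167 against gu163, with unadjusted 95% intervals from edgeR as bars and a line at 0. Every interval includes 0, and those of Cbr-mpk-1 and Cbr-lin-31 are the widest.

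Among the 10 genes, 2 had libraries that did not overlap between strains in each comparison. They were Cbr-ptp-2 and Cbr-mek-2 in gu163 against AF16, Cbr-cnk-1 and Cbr-lin-31 in gu167 against AF16, and Cbr-lin-31 and Cbr-eor-1 in gu167 against gu163. Over all genes tested, 27.5%, 19.5% and 38.8% did not overlap in these 3 comparisons, so the members' share of 2 in 10 was near or below the background. The median log2 fold change of the 10 genes was -0.09 in gu163 and -0.10 in gu167 against AF16, beside -0.01 and -0.02 over all genes tested. Without AF16 replicate 3 the members' medians were 0.0038 and 0.05. In gu167 against gu163 the median was 0.14, beside 0.02 over all genes tested. The comparisons of the mutants with AF16 share the AF16 libraries.

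To set these values beside genes of like level, genes with a mean of 20 to 150 CPM were taken, a window chosen after the members' levels were seen, which held 4771 genes and 8 of the 10 members. In this window 9.01% of genes were called in gu163 against AF16, 0.755% in gu167 against AF16 and 16.5% in gu167 against gu163. The smallest called change was 0.41, 0.64 and 0.43 on the log2 scale in these comparisons. The members' fold changes within the window were all smaller than these values, the largest being that of Cbr-mpk-1 in gu167 against AF16 at -0.49. The median absolute change over the genes of the window was below them too, at 0.24, 0.18 and 0.27. Over the 10 members this median was 0.09, 0.18 and 0.18. Lying below the smallest called change is thus not particular to the members.

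The spread between replicates differed widely among the 10 genes. The within-strain SD of log2 CPM was 0.10 for Cbr-mek-2, lower than in all but 3.24% of the genes tested. It was 0.13 to 0.17 for Cbr-cnk-1, Cbr-soc-2, Cbr-sur-6, Cbr-eor-1, Cbr-ptp-2 and Cbr-sur-2, 0.22 for Cbr-ksr-2 and 0.26 for Cbr-lin-31, of which the last pair had the fewest counts. Cbr-mpk-1 had 0.57, above 85.3% of all genes tested and above 94.3% of the genes with a mean of 20 to 150 CPM. The median was 0.15 over the 8 members in that window and 0.22 over its genes.

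**Figure D4:**
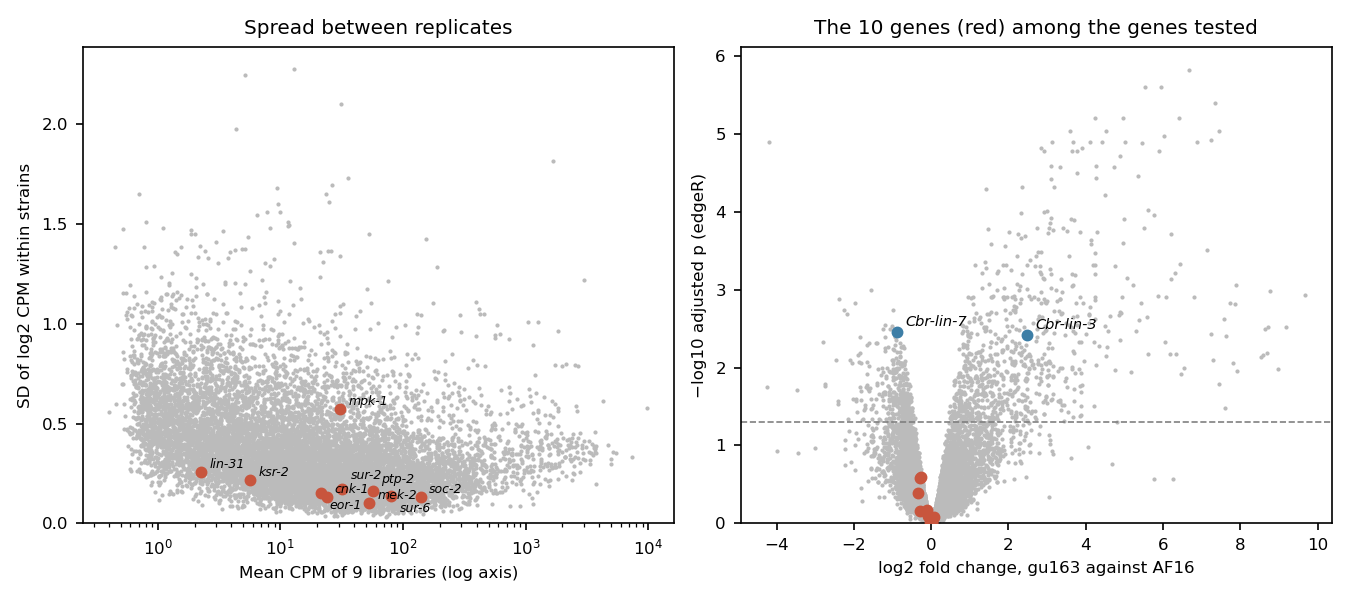
Left, within-strain SD of log2 CPM (y axis) against mean CPM on a log axis (x axis) for the 12507 genes tested (grey) and the 10 genes (red). Right, −log10 of the edgeR adjusted p (y axis) against the log2 fold change in gu163 against AF16 (x axis), with a dashed line at an adjusted p of 0.05. The 10 genes lie below the line near 0, and Cbr-lin-3 and Cbr-lin-7 (blue) lie above it at 2.49 and -0.87.

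The patterns of single members over the 9 libraries were compared as the root-mean-square difference of their log2 CPM, each gene centred on its own mean. Values were not scaled to a gene's spread. Genes with little spread therefore tend to lie close together, and a gene with wide spread lies far from them. Among the 45 pairs of members the closest were Cbr-ptp-2 and Cbr-mek-2 (0.06). These also had the smallest unadjusted p-values of the 10 genes, both in gu163 against AF16. The next pairs were Cbr-cnk-1 and Cbr-sur-2 (0.11) and Cbr-soc-2 and Cbr-sur-6 (0.12). Cbr-mpk-1 stood at least 0.40 from every other member. Of 4174 other genes with a symbol and a mean of at least 5 CPM, those most like Cbr-mek-2 were Cbr-rars-1 (0.05), Cbr-fars-1 (0.06) and Cbr-ears-1 (0.06), named as tRNA synthetase genes, against a median difference of 0.28. Those most like Cbr-ptp-2 were Cbr-mek-2, the translation initiation factor gene Cbr-eif-3.C (0.07) and Cbr-gad-1 (0.07), against a median of 0.30. Chosen after its values were seen, Cbr-mpk-1 was closest to the kinase gene Cbr-gsk-3 (0.14), Cbr-sup-26 (0.15) and Cbr-cgh-1 (0.17), against a median of 0.52. In AF16 replicate 3 Cbr-gsk-3 stood at 75.0 CPM, against 27.9 to 40.4 CPM in the other 8 libraries.

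**Figure D5:**
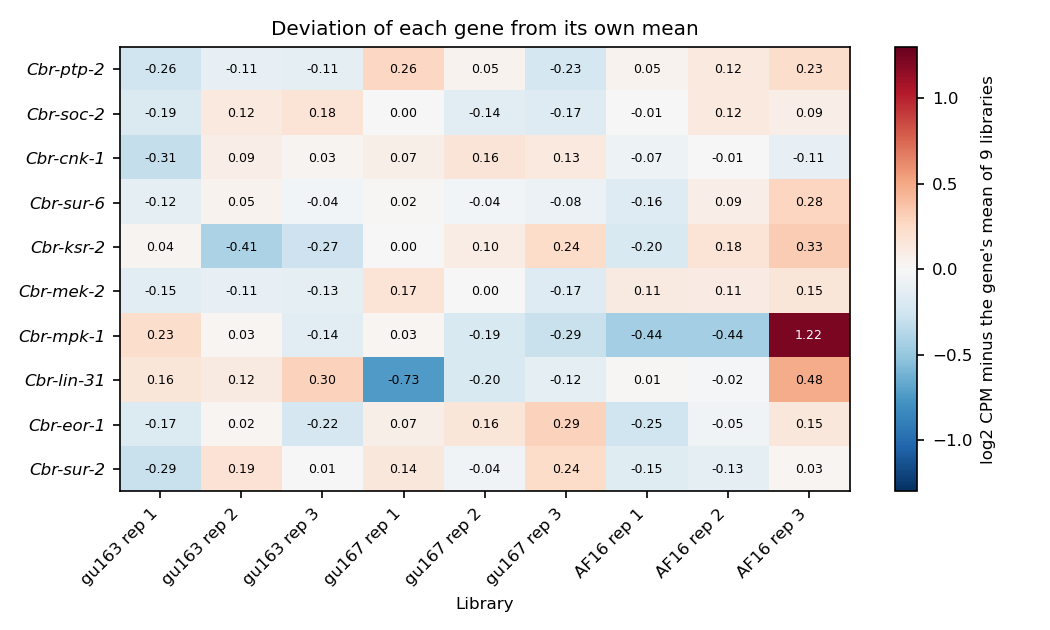
Deviation of each of the 10 genes (rows) from its own mean over 9 libraries (columns), in log2 CPM, with red above and blue below the mean. Cbr-mpk-1 in AF16 replicate 3 (1.22) is the largest deviation, followed by Cbr-lin-31 in gu167 replicate 1 (-0.73).

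The other genes of the pathway were taken from 5 lists with 52 names, of which 47 matched a symbol and 46 were tested. In gu163 against AF16, 1 rose and 1 fell by edgeR, where 6.36% of all genes tested rose and 2.94% fell. In gu167 against AF16, 1 rose and 0 fell, where 1.97% rose and 0.128% fell. In gu167 against gu163, 1 rose and 0 fell, where 5.13% rose and 8.33% fell. These calls lay in the list of ligand, receptor and receptor localisation genes. The ligand gene Cbr-lin-3 had 21, 46 and 36 counts in gu163, 25, 46 and 23 in gu167, and 7, 3 and 6 in AF16, so that AF16 replicate 2 lay at the level of 3 counts. It averaged 3.15 ± 0.580 CPM in gu163, 2.43 ± 0.419 CPM in gu167 and 0.574 ± 0.272 CPM in AF16 (SD, n = 3), with log2 fold changes of 2.49 ± 0.40 (edgeR adjusted p = 0.00385) and 2.12 ± 0.40 (edgeR adjusted p = 0.0221). The gu167 call was lost without AF16 replicate 2, gu167 replicate 2 or gu167 replicate 3, without AF16 replicate 3 and gu167 replicate 3 together, with only gu167 and AF16 in the fit, and with a replicate block (edgeR adjusted p from 0.0599 to 0.102). Cbr-lin-7, whose C. elegans counterpart localises the receptor, fell to 28.7 ± 2.90 CPM in gu163, against 52.6 ± 1.84 CPM in AF16 (log2 -0.87 ± 0.14, edgeR adjusted p = 0.0035).

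The receptor gene Cbr-let-23 gave 25.9, 32.2 and 26.02 CPM in gu163, 18.4, 23.2 and 22.1 CPM in gu167, and 19.8, 19.6 and 22.4 CPM in AF16. All gu163 libraries lay above those of AF16, and the log2 fold change of 0.45 ± 0.16 did not pass (edgeR adjusted p = 0.116). Of 9 tested adaptor, Ras and Ras regulator genes 0 were called in any comparison by edgeR, with 0, 0 and 1 at an unadjusted p under 0.05 in gu163 against AF16, gu167 against AF16 and gu167 against gu163. Over all genes tested, 23.6%, 15% and 28.4% had such a p. The Ras gene Cbr-let-60 gave 64.5, 58.6 and 56.4 CPM in gu163, 68.9, 58.6 and 57.6 CPM in gu167, and 63.8, 59.8 and 88.9 CPM in AF16. The strains overlapped, with AF16 replicate 3 the highest library, and the log2 fold changes against AF16 were -0.24 ± 0.17 in gu163 and -0.20 ± 0.17 in gu167, with edgeR adjusted p-values of 0.421 and 0.584. Cbr-rgl-1, of a guanine nucleotide exchange factor for Ral, averaged 52.6 ± 1.61 CPM in gu167 and 69.9 ± 11.01 CPM in gu163 (log2 -0.41 ± 0.14, edgeR adjusted p = 0.0803), and passed without AF16 replicate 3 (edgeR adjusted p = 0.0453), where 19.3% of all genes tested were called.

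A list of kinases, scaffolds, phosphatases and other pathway genes outside the 10 had 11 tested genes, of which 0 were called by edgeR in any comparison. They were Cbr-lin-45, Cbr-ksr-1, Cbr-let-92, Cbr-paa-1, Cbr-par-1, Cbr-par-5, Cbr-ftt-2, Cbr-daf-21, Cbr-cdc-37, Cbr-sur-7 and Cbr-cdf-1. From Cbr-par-5 on these are neither kinase nor phosphatase genes, so the list does not stand for the kinase cascade alone. At an unadjusted p under 0.05 there were 3 in gu163 against AF16, 1 in gu167 against AF16 and 2 in gu167 against gu163. The shares over all genes tested were 23.6%, 15% and 28.4%. DESeq2 called 1, Cbr-sur-7, in gu163 against AF16, where it called 12.9% of all genes. All 11 had lower values in gu163 than in AF16 with all libraries, with a median log2 fold change of -0.27, beside 51.2% of all genes tested, and 6 of 11 were lower without AF16 replicate 3, with a median of -0.07, beside 49.0%. Of the same genes, 10 of 11 had lower values in gu167 than in AF16 with all libraries, with a median of -0.29, beside 52.0% of all genes tested, and 8 of 11 without AF16 replicate 3, with a median of -0.06, beside 49.6%. The Raf gene Cbr-lin-45 gave 49.0, 54.1 and 50.7 CPM in gu163, 56.6, 48.8 and 57.5 CPM in gu167, and 49.6, 46.8 and 77.5 CPM in AF16. It too was highest in AF16 replicate 3. Its log2 fold changes against AF16 were -0.18 ± 0.19 in gu163 and -0.09 ± 0.19 in gu167, with edgeR adjusted p-values of 0.624 and 0.838. Cbr-ksr-1, the other kinase suppressor of Ras gene, gave 27.9, 24.9 and 27.2 CPM in gu163, 30.4, 33.6 and 35.8 CPM in gu167, and 32.8, 34.1 and 31.7 CPM in AF16. All gu163 libraries were below those of AF16, and the log2 fold change of -0.30 ± 0.13 did not pass (edgeR adjusted p = 0.189). Cbr-sur-7, whose C. elegans counterpart resembles metal ion transporters, averaged 8.98 ± 1.73 CPM in gu163 and 13.4 ± 0.809 CPM in AF16 (log2 -0.57 ± 0.18, edgeR adjusted p = 0.0839).

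Of 10 tested negative regulators 0 were called by edgeR, with 3, 2 and 0 at an unadjusted p under 0.05 in gu163 against AF16, gu167 against AF16 and gu167 against gu163. Among all genes tested the shares were 23.6%, 15% and 28.4%. Cbr-dpy-23, the gene of a clathrin adaptor subunit, gave 74.0, 55.9 and 60.4 CPM in gu163, 59.9, 46.8 and 48.3 CPM in gu167, and 123, 65.0 and 139 CPM in AF16. The AF16 libraries were spread widely, and replicate 2 lay near the mutants. Against AF16 the log2 fold change was -1.07 ± 0.25 in gu167 (edgeR adjusted p = 0.0694) and -0.78 ± 0.25 in gu163 (edgeR adjusted p = 0.0906). Cbr-lst-2, which in C. elegans opposes the pathway as a target of lateral signalling, gave 65.5, 52.4 and 53.8 CPM in gu163, 51.1, 47.2 and 44.3 CPM in gu167, and 101.3, 56.7 and 162 CPM in AF16. Its AF16 libraries were spread widely as well, with replicate 2 the lowest, and its log2 fold change in gu167 was -1.16 ± 0.30 (edgeR adjusted p = 0.0943). DESeq2 called Cbr-dpy-23 and Cbr-lst-2 in gu167 (adjusted p = 0.00796 and 0.0146), and edgeR called both in both mutants without AF16 replicate 2 (adjusted p from 0.00585 to 0.0106). Their identifiers are consecutive (CBG14461 and CBG14460) and their AF16 libraries have the same order. Whether they are separate signals was not tested.

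Of 10 tested nuclear effector, Mediator and Hox genes 0 were called by edgeR, with 2, 3 and 2 at an unadjusted p under 0.05 in the same 3 comparisons. All genes tested had such a p in 23.6%, 15% and 28.4% of cases. Cbr-dpy-22, a gene of the Mediator kinase module, averaged 319.8 ± 24.1 CPM in gu167 and 443 ± 32.0 CPM in gu163, a log2 difference of -0.47 ± 0.17 (edgeR adjusted p = 0.0998) that DESeq2 called (adjusted p = 0.0151). Without AF16 replicate 3 it passed by edgeR (adjusted p = 0.0465). DESeq2 also called it higher in gu163 than in AF16 (adjusted p = 0.0209), where edgeR gave an adjusted p of 0.123. Cbr-sem-4 gave 126, 142 and 145 CPM in gu167 and 108, 83.4 and 99.3 CPM in gu163. It passed as higher in gu167 against gu163 without AF16 replicate 3 (log2 0.50, edgeR adjusted p = 0.0249). With only these strains in the fit it passed too (log2 0.51, edgeR adjusted p = 0.0363). In these refits 19.3% and 18.5% of all genes tested were called. Cbr-egl-17, a vulval target gene, was below the filter on low counts. Cbr-lin-1, listed as a nuclear effector too, had no symbol match, so its level is not known here. The other MAP kinase cascades, with 19 tested genes, had 0 called genes in the 3 comparisons by edgeR. At an unadjusted p under 0.05 they had 0, 1 and 1, beside the same shares of all genes tested.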

How the data were processed

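Per the labels' protocols, TRIZOL-extracted RNA of whole larvae was cleared of rRNA and read as single ends on a HiSeq 2000. The values deposited by the authors are raw counts per gene. STAR, Trim Galore, FastQC and DESeq appear in the submitters' processing notes, with no version. Not given in the sources used here were the build, annotation, counter and use of strand. Reads of overlapping or antisense genes can therefore not be told apart, and no coordinates or sequences are given. The sample files and the series table held the same counts in 9 of 9 columns. Symbols came from a RefSeq gene table of assembly CB4, which matched 22727 identifiers and left 195 unmatched.

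All 9 libraries entered 1 edgeR 4.0.16 fit of 3 groups in R 4.3.3 (TMM, minimum count 10, robust quasi-likelihood F test), adjusted by Benjamini-Hochberg over 12507 genes and called at 0.05. CPM use TMM-adjusted totals, and log2 CPM add a prior count of 2. The series' design text prints the FDR as 0.05%; an adjusted p under 0.0005 was an alternative. Standard errors come from the F statistic, and intervals are unadjusted. Replicates are called independent and biological in the labels. Alternatives used DESeq2 1.42.0, limma 3.58.1 (voom), other scalings and filters, and omitted libraries. The steps were tested on simulated counts. Members and lists were chosen with earlier results of these data known. Named genes are the 10 members, all called pathway genes, the 3 pathway genes with the smallest p per comparison, and the 3 genes closest in pattern to the 2 members with the smallest p. Cbr-let-60, Cbr-lin-45, Cbr-let-23, Cbr-ksr-1, Cbr-sem-4 and Cbr-egl-17 were named outside this rule, after their values were seen. So were the single marker genes and the other genes of the list with kinases, scaffolds and phosphatases. Cbr-lin-1 was named because it had no symbol match.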

Additional observations from a re-analysis of the deposited data

Results flagged for a closer look

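The effects of the mutants on Cbr-lin-7 differed by a direct test. Its level was 52.1 ± 5.96 CPM in gu167 and 28.7 ± 2.90 CPM in gu163 (SD, n = 3), a log2 fold change of 0.86 ± 0.14 (edgeR adjusted p = 0.00551), higher in 3 of 3 gu167 libraries than in every gu163 library. None of the 10 cascade genes passed this test between the mutants in edgeR, with 0 at an unadjusted p under 0.05 and 0 called by DESeq2 or limma-voom.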

How the results depend on the processing

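The count of called cascade genes was 0 in all 3 comparisons under every alternative run, including each omission of 1 library. At an unadjusted p under 0.05 it was 1, Cbr-mpk-1, in gu163 against AF16 without AF16 replicate 3. Leaving out AF16 replicate 3 with gu167 replicate 3 gave 1 in gu163 against AF16 and 1 in gu167 against gu163. With all libraries, 23.6% and 28.4% of all genes tested had such a p in these comparisons. The shares in the refits were not taken. With a minimum count of 30 Cbr-lin-31 was not tested. The log2 fold change of single members kept its sign in 494 refits and changed it in 43, in values that passed no test. Among these, Cbr-soc-2 in gu163 was 0.0056 with upper-quartile scaling and 0.0052 with a minimum count of 30. Cbr-ksr-2 in gu167 against AF16 was 0.072 with upper-quartile scaling, 0.011 with a minimum count of 30, 0.012 by limma-voom, 0.0023 with only these strains in the fit and 0.0021 with a replicate block. Cbr-sur-6 in gu167 against gu163 was -0.0037 with RLE scaling, -0.0050 with no filter, -0.014 with a minimum count of 30 and -0.0041 by DESeq2. Without AF16 replicate 3 and gu167 replicate 3 together, gu163 against AF16 gave -0.0026 for Cbr-cnk-1, 0.0088 for Cbr-sur-6, 0.49 for Cbr-mpk-1 and 0.036 for Cbr-eor-1, and gu167 against AF16 gave 0.076 for Cbr-ptp-2, 0.024 for Cbr-sur-6, 0.050 for Cbr-ksr-2 and 0.36 for Cbr-mpk-1. Omitting 1 library at a time, gu163 against AF16 ranged from -0.093 to 0.096 for Cbr-soc-2, -0.068 to 0.13 for Cbr-cnk-1, -0.22 to 0.0087 for Cbr-sur-6, -0.58 to 0.49 for Cbr-mpk-1, -0.067 to 0.22 for Cbr-lin-31, -0.18 to 0.036 for Cbr-eor-1 and -0.049 to 0.20 for Cbr-sur-2. In gu167 against AF16 the range was -0.23 to 0.026 for Cbr-ptp-2, -0.14 to 0.11 for Cbr-ksr-2 and -0.78 to 0.29 for Cbr-mpk-1, and in gu167 against gu163 it was -0.061 to 0.043 for Cbr-sur-6 and -0.0041 to 0.25 for Cbr-sur-2. The cause of these changes was not tested.

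Of the other pathway genes, edgeR called 2, 1 and 1 in gu163 against AF16, gu167 against AF16 and gu167 against gu163. DESeq2 called 4, 3 and 2 of 46, where it called 12.9%, 5.09% and 18.3% of all genes, and 0 passed at an adjusted p under 0.0005 in each. In gu167 against AF16 the count was 2 with no filter, and 0 with only these strains in the fit, with the replicate block, or without AF16 replicate 3 and gu167 replicate 3 together. In gu167 against gu163 it was 2 with only these strains in the fit. Omitting 1 library gave 2 to 4, 0 to 2 and 1 to 4. The highest counts came without AF16 replicate 2 in the comparisons with AF16, where 6.65% and 2.04% of all genes were called, and without AF16 replicate 3 in gu167 against gu163, where 19.3% were called. Levels of the members moved by more than 1 SD in 12 of 30 strain means without scaling and in 0 of 30 with RLE.

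Replicate numbers are shared by the strains, but the deviations of same-numbered libraries correlated from -0.29 to 0.25, so the numbers were not taken as pairs. Those of differently numbered libraries correlated from -0.33 to 0.39, with AF16 replicate 3 and gu163 replicate 1 the highest. The replicate block left the count of called cascade genes at 0. No alternative tells vulval cells from the rest of the larva, and Cbr-lin-31 and Cbr-ksr-2 are limited by counts of 15 to 95 per library and Cbr-lin-3 by 3 to 7 counts in AF16.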
